A study of Mus musculus with 6 samples.

Results

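This section describes 10 genes that mark macrophages and monocytes of the bone marrow, taken by name and measured on arrays of mouse B-cell leukaemias. They were Csf1r, Lyz2, Cd68, Adgre1, Cd14, C1qa, C1qb, C1qc, Vcam1 and Mrc1, 10 of the 18193 genes with a probe set that the platform annotation ties to exactly 1 symbol. Where a gene had several probe sets, the one of highest average level was used, and levels are log2 values made by RMA, which equalizes the arrays and merges the probes of a probe set. All donor mice were C57BL/6 and homozygous for a conditional gene-trap allele of Cdh1, with a floxed cDNA. Cdh1 here is the coactivator of the anaphase-promoting complex encoded by Fzr1, not E-cadherin. The Cdh1-deficient donors carried Mx1-Cre, a recombinase under an interferon-inducible promoter, and the Cdh1-intact donors did not. Both kinds were littermates, and all received pIpC, which induces interferon, from 7 to 8 weeks of age. Donor marrow was taken 4 weeks after the last pIpC dose and 2 days after 5-fluorouracil at 150 mg/kg. N-myc was delivered with the retroviral vector pMXs-IG, and GFP-positive marrow mononuclear cells were sorted from each moribund mouse. RNA of 3 Cdh1-intact leukaemias (I1, I2 and I3) and 3 Cdh1-deficient leukaemias (D1, D2 and D3, numbered as in the labels) was hybridised, 1 array per mouse. Triplets of values below follow the order I1, I2, I3 and D1, D2, D3.

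Macrophages and monocytes descend from myeloid progenitors under the growth factor CSF1, which acts through the receptor kinase CSF1R and needs the transcription factor PU.1, encoded by Spi1. Marrow macrophages clear dying cells and the nuclei expelled by red cell precursors, hold erythroblasts in islands through VCAM1, and secrete C1q, the recognition unit of the classical complement pathway. Monocytes and neutrophils share several of these transcripts, lysozyme and CD14 among them, so a single gene of the set does not name a cell type.

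The arrays differed in other transcripts too, named here with their values known. The targeted gene Fzr1 read 8.92, 8.04 and 8.92 in I1 to I3 against 8.10, 7.73 and 8.22 in D1 to D3, with overlap at I2. Its probes have no stated position relative to the trap, so these levels check no genotype. In I2 Cd79b, of the B-cell receptor, read 4.35 where the other arrays gave 11.60 to 12.47. Cd3g, of the T-cell receptor, read 12.48 in I2, 7.95 in I3 and 3.25 to 3.52 in I1 and D1 to D3. I2 thus carried a B-cell leukaemia label with this B-cell transcript near the lower quartile of all genes. I1 was the only one with a low Xist level (6.75, against 12.58 to 13.17) and a high level of the Y-linked Eif2s3y (9.60, against 2.68 to 3.22). In bulk RNA, fewer cells of a type and less RNA per cell cannot be told apart.

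The widest differences lay between single mice, and no group difference passed the test. None of the 10 genes separated the groups without overlap, where 11.7% of all genes did. At an adjusted p under 0.05 limma called 0 of the 10, beside 0% of the 18193 genes, and at an unadjusted p under 0.05 it called 0 of the 10, beside 5.5% of all genes. Of the 10, 4 had a higher mean in Cdh1-deficient cells (Lyz2, Cd68, Cd14 and Vcam1) and 6 a lower one, with a median difference of −0.11 on the log2 scale, beside a median of 0.0034 over all genes. The spread within groups was wide: the median within-group SD was 1.02 for the 10 genes and 0.20 over all genes, and the median range over the 6 arrays was 2.38 against 0.55. I1 held the highest value for 7 of the 10 genes, where it did so for 20.4% of all genes. D2 held it for the other 3, where it did so for 14.8% of all genes. I2 held the lowest value for 7 of the 10, against 24.0% of all genes. With 1 array per mouse, the order of single arrays has no error of its own.

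**Figure D1:**
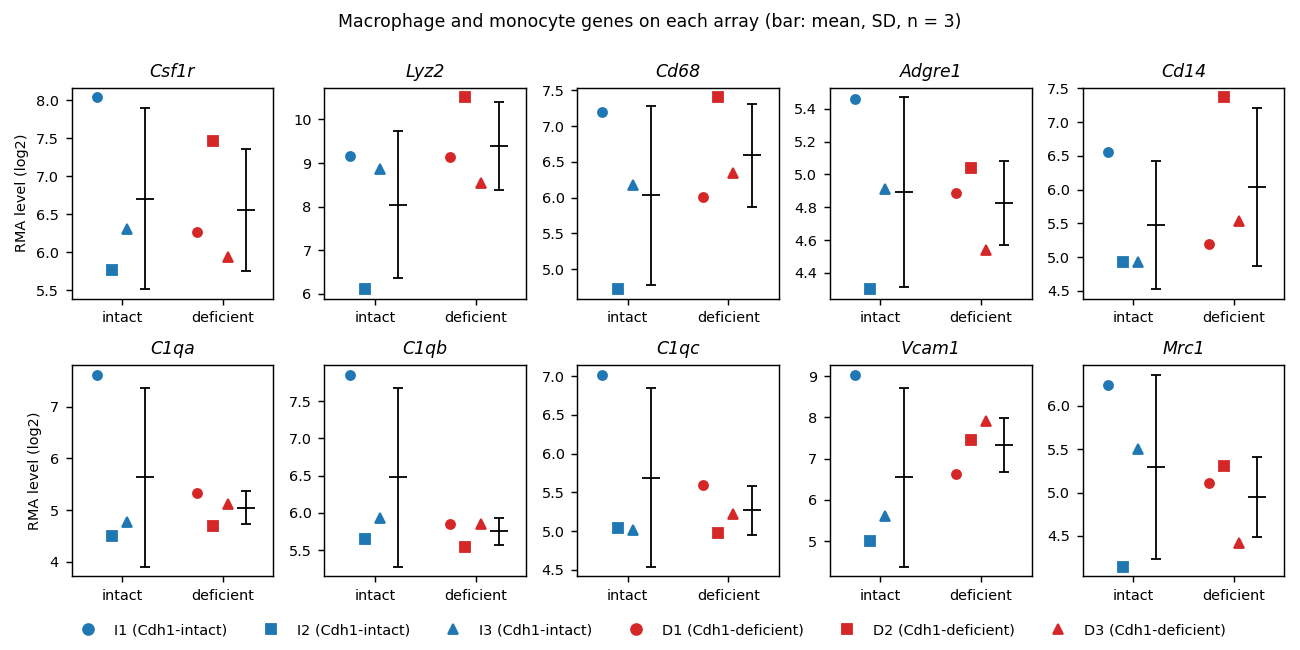
RMA level on the log2 scale (y axis, its own range for each gene) of the 10 genes by group (x axis), 1 point per array, with the mean and SD of 3 arrays beside the points. I1 (blue circle) is the highest point for 7 genes, D2 (red square) for Lyz2, Cd68 and Cd14, and the groups overlap for each gene.

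Csf1r encodes the receptor for CSF1 and IL34 on which most macrophages depend. Its chosen probe set read 8.04, 5.76 and 6.31 in I1 to I3 and 6.27, 7.47 and 5.93 in D1 to D3. I1 and D2 were high and the other 4 lay together. The difference, Cdh1-deficient minus Cdh1-intact, was −0.15 (SE 0.69, 95% interval −1.83 to 1.54, limma adjusted p = 0.974). Leaving out I1 turned it to 0.52, and leaving out D3 turned it to 0.17. The remaining probe sets of Csf1r moved less, from 5.74 to 6.69 and from 5.93 to 6.55, so the high value in D2 rests mainly on the chosen set. Both put I1 highest.

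No other gene measured from the CSF1 pathway passed the test. Of 19 measured ligands, signalling genes and transcription factors, 10 were higher and 9 lower in Cdh1-deficient cells, with a median of 0.0003. Limma called 0 of them, and 2 had an unadjusted p under 0.05, beside 5.5% of all genes. The ligand gene Csf1 lay at 7.28, 4.84 and 6.82 against 7.40, 6.47 and 6.45. Spi1 lay at 8.55, 5.31 and 8.11 against 7.98, 8.56 and 7.64, so both were lowest in I2. The monocyte transcription factor genes Klf4 and Nr4a1 had the smallest unadjusted p of the list. They were the 2 of the 19 that did not overlap between the groups, beside 11.7% of all genes. Their differences were −2.67 (SE 0.75) and −2.42 (SE 0.77), each at a limma adjusted p of 0.849. Both genes are also known as immediate early response genes. Klf4 read 9.99, 8.23 and 8.15 against 6.06, 7.33 and 4.99.

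Lyz2, the lysozyme of macrophages and granulocytes, had the widest range of the 10 genes, 4.40. It lay at 9.16, 6.11 and 8.87 in I1 to I3 and at 9.13, 10.51 and 8.55 in D1 to D3. I2 was low and D2 high, while the other 4 lay within the space between 8.55 and 9.16. The difference was 1.35 (SE 0.93, 95% interval −0.94 to 3.64, limma adjusted p = 0.849), or 0.38 without I2 and 0.79 without D2. The neighbouring lysozyme gene Lyz1 is a near copy, and the readings of both genes are uncertain for that reason. Lyz2 was read by 1 probe set. Lyz1 lay at 10.19, 6.21 and 9.97 against 10.14, 11.54 and 9.74, with the same highest and lowest arrays, which may not be an independent reading.

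Cd68, a glycoprotein of macrophage lysosomes, lay at 7.20, 4.72 and 6.17 in I1 to I3 and at 6.01, 7.40 and 6.35 in D1 to D3. Its highest and lowest arrays were those of Lyz2, with I1 close below the highest. The difference of 0.56 (SE 0.69, 95% interval −1.13 to 2.25, limma adjusted p = 0.889) turned to −0.10 without I2.

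Cd14 encodes the coreceptor that hands bacterial lipopolysaccharide to TLR4 and MD2. It lay at 6.56, 4.93 and 4.92 in I1 to I3 and at 5.20, 7.37 and 5.54 in D1 to D3. Only D2 and I1 exceeded the median level of all genes on their array. The difference of 0.56 (SE 0.72, 95% interval −1.20 to 2.33, limma adjusted p = 0.894) turned to −0.10 without D2. A list of 14 measured genes of lipopolysaccharide sensing also counted the related receptor genes Tlr1, Tlr2 and Tlr6. Of the 14, 10 were higher and 4 lower, with a median of 0.42, 0 called and 0 at an unadjusted p under 0.05. I2 held the lowest value for 11 of these 14 genes, against 24.0% of all genes. Without I2, 6 were higher and the median was −0.09. Tlr4 lay at 5.33, 4.17 and 5.87 against 5.55, 5.47 and 5.92. Ly96, which encodes MD2, lay at 6.66, 5.29 and 6.82 against 6.47, 6.81 and 6.55. Both were lowest in I2, and neither showed the high values of Cd14 in D2 and I1.

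Adgre1 encodes an adhesion-type receptor that is the classical surface marker of mouse macrophages, and Mrc1 the mannose receptor CD206. Adgre1 lay at 5.46, 4.30 and 4.91 in I1 to I3 and 4.89, 5.04 and 4.54 in D1 to D3, below the median level of all genes on each of the 6 arrays. Mrc1 lay at 6.24, 4.15 and 5.51 against 5.11, 5.31 and 4.42, above that median in I1 alone. Both were highest in I1 and lowest in I2. The difference was −0.07 for Adgre1 (SE 0.31, 95% interval −0.83 to 0.70, limma adjusted p = 0.974). For Mrc1 it was −0.35 (SE 0.56, 95% interval −1.71 to 1.02, limma adjusted p = 0.915). Without I1 they turned to 0.22 and 0.12, and Adgre1 also turned to 0.07 without D3. Among 13 other C-type lectin genes of macrophages and dendritic cells 8 were higher and 5 lower, with a median of 0.23, 0 called and 0 at an unadjusted p under 0.05. D2 held the highest value of 7 of the 13, against 14.8% of all genes, which it did not for Mrc1. The related receptor gene Mrc2 varied only from 4.68 to 5.05.

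C1qa, C1qb and C1qc encode the chains that assemble into C1q, and the genes neighbour each other on chromosome 4. The 3 were highest in I1, where Lyz2, Cd68 and Cd14 were highest in D2. As a description over the same 6 arrays, Pearson's r between pairs of the 3 was 0.96 to 0.99. Without I1 it was 0.89 for C1qa with C1qc. For the chosen C1qb probe set it was then 0.58 with C1qa and 0.43 with C1qc. The likeness of that probe set to the others thus rests largely on I1. To show the sequence before genes of each pattern, the 250 bases before the annotated start are given from RefSeq (GRCm38.p6), for C1qb and C1qc of the first pattern and Lyz2 and Cd68 of the second. Capitals mark the letters GAGGAA (a core of PU.1 sites) and TGCTGA (part of the site of MAF factors) on either strand. These windows are chr4:136886201-136886450, chr4:136892915-136893164, chr10:117282273-117282522 and chr11:69666171-69666420, each on the minus strand and written 5′ to 3′.
C1qb: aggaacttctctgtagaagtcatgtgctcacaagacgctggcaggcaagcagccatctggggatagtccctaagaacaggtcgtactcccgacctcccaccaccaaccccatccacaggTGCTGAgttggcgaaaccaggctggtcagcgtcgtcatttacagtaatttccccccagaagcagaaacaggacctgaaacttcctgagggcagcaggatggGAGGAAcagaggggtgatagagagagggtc
C1qc: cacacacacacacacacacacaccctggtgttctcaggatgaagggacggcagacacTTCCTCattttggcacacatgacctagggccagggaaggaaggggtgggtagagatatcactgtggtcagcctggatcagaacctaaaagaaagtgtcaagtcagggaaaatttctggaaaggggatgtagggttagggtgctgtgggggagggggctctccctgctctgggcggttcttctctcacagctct
Lyz2: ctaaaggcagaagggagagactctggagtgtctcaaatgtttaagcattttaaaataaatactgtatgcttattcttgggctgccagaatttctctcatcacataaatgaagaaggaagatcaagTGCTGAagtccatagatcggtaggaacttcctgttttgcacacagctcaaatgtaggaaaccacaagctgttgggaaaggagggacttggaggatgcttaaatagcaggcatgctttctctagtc
Cd68: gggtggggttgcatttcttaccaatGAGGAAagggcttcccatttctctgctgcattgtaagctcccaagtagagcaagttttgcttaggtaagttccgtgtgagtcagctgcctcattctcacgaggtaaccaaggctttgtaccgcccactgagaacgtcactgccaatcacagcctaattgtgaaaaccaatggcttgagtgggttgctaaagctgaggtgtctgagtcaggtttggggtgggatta
GAGGAA or its reverse complement occurs once each before C1qb, C1qc and Cd68 and not before Lyz2, and in 23.2% of 32851 promoter windows of the same length. TGCTGA or its reverse complement occurs before C1qb and Lyz2, and in 16.1% of those windows. The TATA box letters TATAAA, searched on both strands and found in 12.4% of windows, occur in none of the 4. The matches overlap no other match. Neither motif was found before both genes of one pattern and absent before both of the other. A match is a description and not a site.

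The C1q genes were high on a single array. C1qa lay at 7.63, 4.50 and 4.77 in I1 to I3 and at 5.33, 4.70 and 5.12 in D1 to D3. I1 exceeded the next array by 2.30 on the log2 scale. C1qb lay at 7.86, 5.65 and 5.94 against 5.85, 5.55 and 5.86, and C1qc at 7.02, 5.04 and 5.02 against 5.60, 4.98 and 5.22, with gaps of 1.92 and 1.42 to the next array. The remaining probe sets of C1qb put the same array highest, at 8.12 (others 5.13 to 5.91) and at 7.88 (others 4.05 to 5.60). D2, which led for Lyz2, Cd68 and Cd14, held the lowest value of C1qb and C1qc.

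The group differences of the C1q genes rest on that array. They were −0.58 for C1qa (SE 0.84, 95% interval −2.64 to 1.48, limma adjusted p = 0.905) and −0.73 for C1qb (SE 0.58, 95% interval −2.16 to 0.70, limma adjusted p = 0.849). For C1qc the difference was −0.42 (SE 0.57, 95% interval −1.83 to 0.98, limma adjusted p = 0.899). Without I1 they became 0.41, −0.04 and 0.24. The SD of C1qa was 1.73 among Cdh1-intact mice and 0.32 among Cdh1-deficient mice (n = 3 each).

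I1 held the highest value for 2 of 14 other genes of the complement pathway, where it did so for 20.4% of all genes. It held the highest value for 3 of 3 C1q genes. Of those 14 genes 6 were higher and 8 lower in Cdh1-deficient cells, with a median of −0.06 and 0 called. An unadjusted p under 0.05 was found for 2 of the 14, beside 5.5% of all genes. The protease gene C1ra, whose product binds C1q, lay at 3.53, 3.31 and 4.09 against 3.95, 4.53 and 3.89, and C1s1 between 3.23 and 3.48. C1s1 was below the lower quartile of all genes on the 6 arrays and C1ra on 5 of them. C1s1 was highest in I1 within that narrow range, and C1ra was highest in D2. The complement regulator genes Cd55 and Cr1l were the 2 of the 14 that did not overlap between the groups, beside 11.7% of all genes. Their differences were 1.24 (SE 0.35) and −0.48 (SE 0.16), both with a limma adjusted p of 0.849.

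**Figure D2:**
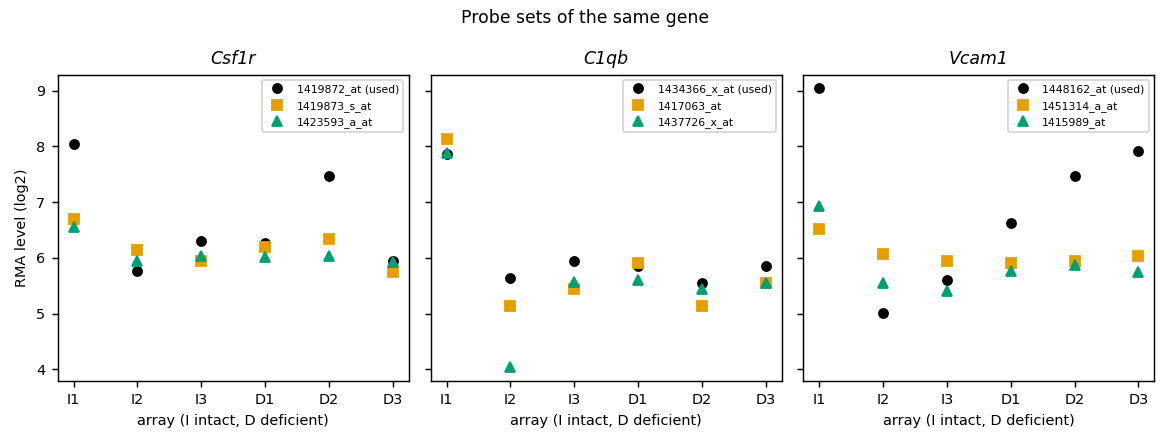
RMA level on the log2 scale (y axis) of each probe set of Csf1r, C1qb and Vcam1 on the 6 arrays (x axis), with 1 marker shape per probe set. The C1qb sets agree in placing I1 highest (7.86, 8.12 and 7.88), while for Csf1r and Vcam1 the chosen set varies far more than the others.

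Vcam1 encodes an adhesion molecule of marrow macrophages, stroma and endothelium that binds integrin α4β1 on haematopoietic cells. Its chosen probe set read 9.04, 5.01 and 5.61 in I1 to I3 and 6.63, 7.46 and 7.91 in D1 to D3. I1 was highest and I2 and I3 were the lowest of the 6, so D1 to D3 lay between them. The difference was 0.78 (SE 1.08, 95% interval −1.87 to 3.43, limma adjusted p = 0.901). It was 2.03 without I1 (limma adjusted p = 0.787) and 0.01 without I2. The other probe sets of Vcam1 ranged from 5.90 to 6.52 and from 5.41 to 6.94, with differences of −0.22 and −0.17, so the sign of the difference depends on the probe set and the mean of all sets gave 0.13. All 3 put I1 highest. The integrin genes Itga4 and Itgb1, which encode the ligand, were highest in I2, at 11.09 and 9.68, where the chosen Vcam1 probe set was lowest. The other Vcam1 sets were lowest in D1 and in I3, and read 6.07 and 5.55 in I2. A list of 13 genes of VCAM1 binding and induction also counted the adhesion genes Icam1 and Icam2. Of the 13, 4 were higher and 9 lower, with a median of −0.12, 0 called and 0 at an unadjusted p under 0.05.

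**Figure D3:**
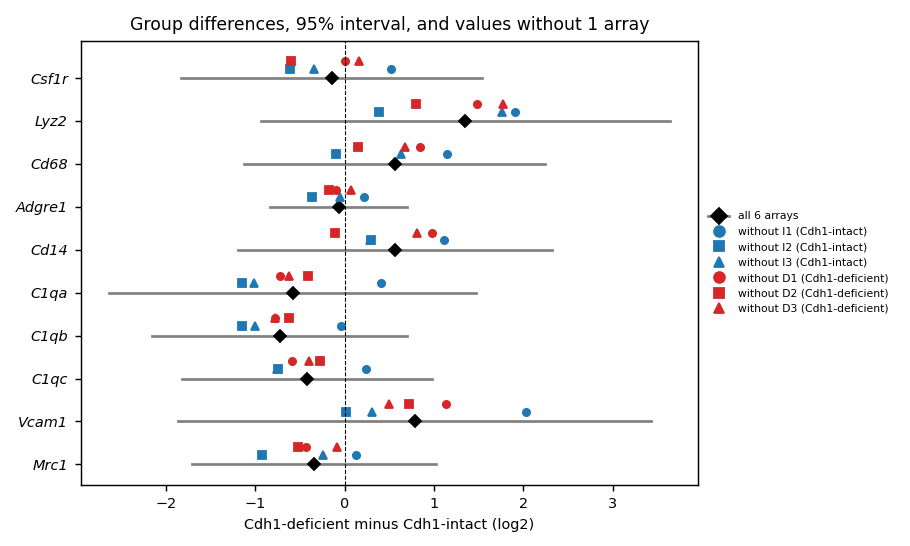
Difference between group means (x axis, Cdh1-deficient minus Cdh1-intact, log2) for each gene (y axis), with the limma estimate (diamond), its 95% interval (line) and the difference with 1 array left out (coloured markers). Each interval includes 0, and leaving out I1 moves the C1q differences to between −0.04 and 0.41.

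Genes whose pattern was most like these were sought among 3854 genes that varied by at least 1 over the 6 arrays, by Pearson's r with a mean profile. The r values are over the same 6 arrays, are dominated by the high and low arrays, and are given as a description. The genes most like the mean of the C1q subunits were Eif2s3y, Fcna, Cavin4, Slc35a2, Selenop and Ly6d (r = 0.97 to 0.99). Fcna encodes ficolin A, a lectin of macrophages that starts the other, lectin-driven arm of complement, and lay at 9.26 in I1 and at 5.65 to 6.93 on the others. Its r was 0.89 without I1, and that of Selenop, a secreted selenium carrier, was 0.95. Without I1 it was 0.65 for Cavin4, 0.55 for Slc35a2 and −0.02 for Ly6d, so the likeness of Ly6d came from the high array. Eif2s3y kept an r of 0.89 without I1, though it lay at only 2.68 to 3.22 on those arrays. A high r there thus does not by itself set a gene apart as like C1q. The Y-linked Eif2s3y was high on that same array, and the part of sex-linked differences in the C1q result was not tested.

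The genes most like the mean of the other 7 members were Dancr, H3f3b, Mpeg1, Zfp385a, Tmem50b and Gpcpd1 (r = 0.97 to 1.00, and 0.93 to 1.00 without I2). Mpeg1, which encodes the pore-forming perforin-2 of phagocytes, lay at 8.30, 4.98 and 6.82 in I1 to I3 and at 6.40, 8.22 and 6.33 in D1 to D3. It was high in I1 and D2 and low in I2, the arrays that stood out for Csf1r and Cd68. H3f3b, a gene for the replacement histone H3.3, went from 7.10 in I2 to 9.94 in I1.

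**Figure D4:**
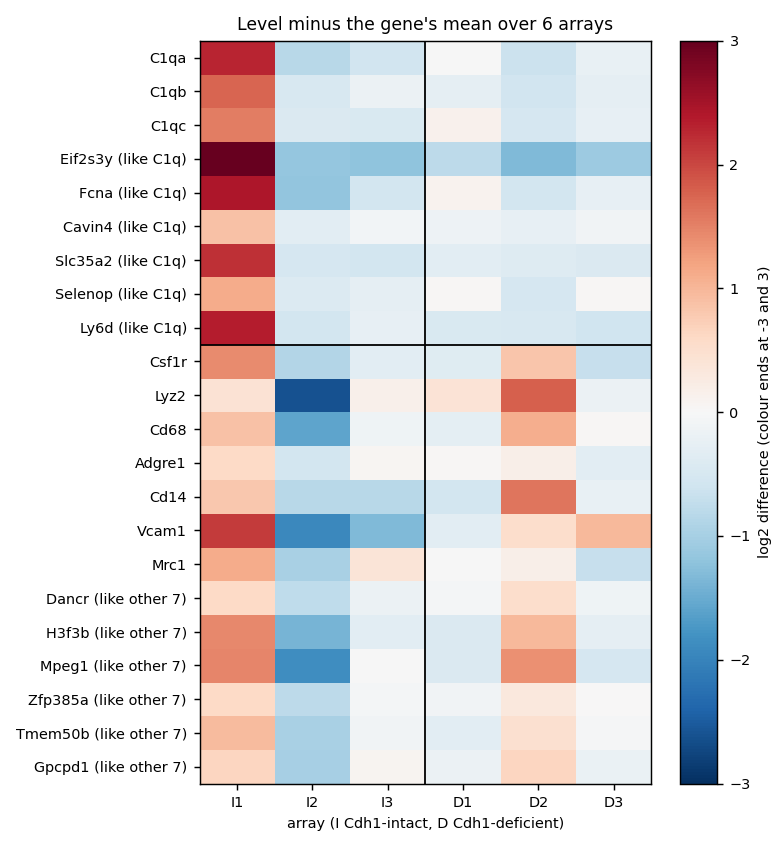
Level of each gene minus its mean over the 6 arrays (colour, log2, ending at −3 and 3) for the 10 members and the genes most like them (rows) on each array (columns). The C1q block above the line is high in I1 alone, while most genes below it are high in I1 and D2 and low in I2.

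Wider marker lists were set beside these patterns on the same bulk arrays, which do not place a pattern in a cell type. Scavenger, clearance and iron-recycling genes of tissue macrophages were highest in I1 for 14 of 26, against 20.4% of all genes. Some of the 14 varied little, among them Stab1, from 5.20 to 5.34, and Spic, from 3.55 to 3.95. Of these 26, 5 were higher and 21 lower in Cdh1-deficient cells, with a median of −0.14 and 0 called. Only 1, the protease gene Ctsb, had an unadjusted p under 0.05, beside 5.5% of all genes. Without I1, 15 were higher and the median was 0.01. The haemoglobin scavenger receptor gene Cd163 read 6.55 in I1 where the other arrays gave 3.42 to 3.98. The haem oxygenase gene Hmox1 read 7.54 in I1 where they gave 5.47 to 6.14. Other genes of the list were highest elsewhere, and each of the other arrays held the highest value for 2 or 3 of the 26. Slc40a1 was highest in D2, at 7.26 against 6.94 in I1. Ctsb and Ctsd were highest in I2, at 11.23 and 10.42. Timd4 and Spic, which mark resident macrophages, varied only from 3.72 to 3.84 and from 3.55 to 3.95, below the lower quartile of all genes. Cd163, Hmox1, Slc40a1, Ctsd, Stab1, Timd4 and Spic were chosen after their values were seen.

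The erythroid list had its highest mean level in I1, though only 4 of its 9 measured genes were highest there and 3 were highest in I2. The shares over all genes were 20.4% for I1 and 21.7% for I2. The mean level of the 9 was 6.96 in I1, against 5.74 in I2, 5.55 in I3 and 5.65 to 6.32 in D1 to D3. Alas2, the first enzyme of haem synthesis in red cell precursors, read 9.31 in I1 and 4.82 to 5.61 elsewhere. Slc4a1 read 9.70 in I1, but also 8.40 in D2 and 7.17 in D3, and 5.10 to 5.60 on the rest. The haemoglobin gene Hba-a1 stayed at 3.27 to 3.61, below the lower quartile of all genes on each array. The transferrin receptor gene Tfrc was lowest in I1 and read 11.43 there and 11.54 to 11.86 elsewhere (Alas2, Slc4a1 and Tfrc were chosen after their values were seen). The part of red cell precursors in the C1q values was not tested.

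Monocyte genes followed D2. It held the highest value for 15 of 24, against 14.8% of all genes, and I2 the lowest for 20 of 24, against 24.0%. Of the 24, 18 were higher and 6 lower in Cdh1-deficient cells, with a median of 0.67, 0 called and 0 at an unadjusted p under 0.05, and the median was 0.22 with 14 higher without I2. Sirpa, an inhibitory receptor of phagocytes, had the smallest unadjusted p, with a difference of 1.08 (SE 0.47, limma adjusted p = 0.849). The monocyte recruitment receptor genes Ccr2 and Cx3cr1 varied only from 4.99 to 5.44 and from 4.62 to 4.92 (chosen after their values were seen).

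Neutrophil markers moved with Lyz2, Cd68 and Cd14. D2 held the highest value for 13 of 13 measured markers, against 14.8% of all genes. I2 held the lowest for 11 of them, against 24.0% of all genes. The mean level of that list was 9.14, 5.78 and 8.32 in I1 to I3 and 8.38, 10.30 and 9.10 in D1 to D3. Their part in the levels of Lyz2, Cd68 and Cd14 was not tested. Stromal and endothelial markers stayed within 4.30 to 4.41 in mean level on the 6 arrays, near the lower quartile of all genes, which was 4.19 to 4.28. Dendritic cell markers had mean levels of 5.34 to 5.76, but single genes moved in opposite directions. I2 held the lowest value for 3 of the 11 and the highest for 1, beside 24.0% and 21.7% of all genes. Tcf4 read 6.78 in I2 and 8.79 to 9.30 elsewhere, and Ccr7 4.23 and 7.08 to 8.38. Batf3 read 8.41 in I2 and 4.76 to 5.03 elsewhere (Ccr7 and Batf3 were chosen after their values were seen). The dendritic lectin gene Cd209a varied only from 4.51 to 5.10.

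The B-lineage list set I2 apart, and the T and NK list set apart I2 and, less so, I3. The B-lineage mean was 4.66 in I2 and 7.46 to 8.34 elsewhere. The mean of T and NK markers was 7.90 in I2, 6.04 in I3 and 4.95 to 5.17 in I1 and D1 to D3. Without I2 the 10 members had a median difference of −0.49 with 3 higher, and without I1 a median of 0.47 with 9 higher, each with 0 called. The part of these lineages in the members' levels was not tested.

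**Figure D5:**
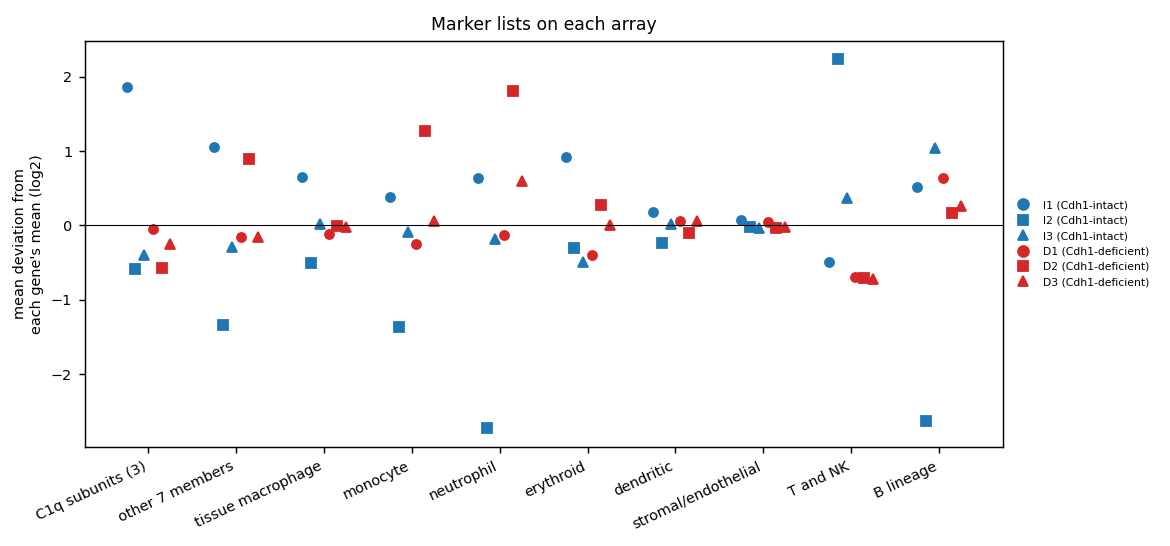
Mean deviation of the genes of each list from their own mean over the 6 arrays (y axis, log2), 1 point per array and list (x axis). I1 leads for the C1q subunits, tissue macrophage and erythroid lists, D2 for the monocyte and neutrophil lists, and I2 is lowest for the monocyte, neutrophil and B-lineage lists and highest for T and NK markers.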

How the data were processed

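The authors deposited log2 values of 45101 probe sets on 6 arrays. Per the submitters' processing notes they were made with RMA, with no version or genome build stated. Names came from a platform annotation dated 2016, in which 34945 carried 1 symbol, 932 carried several and were not used, and the rest are unnamed here. The 10 members matched RefSeq by gene identifier. There was no filter on level and no detection call, and the number of arrays limits the precision.

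Groups and replicate numbers came from the sample titles, and each array was taken as 1 mouse. A linear model was fitted over all 18193 genes with limma 3.58.1 under R 4.3.3, using moderated two-sided tests without a trend, with Benjamini-Hochberg adjustment and a threshold of 0.05, and was tested on simulated data. Members and lists were chosen with earlier results of these data known. Of each further list up to 3 genes of smallest p, and genes paired with a member by role, were named; others are said to be chosen after their values were seen. Alternatives were normalization, centring, level filters, probe set choice, eBayes and weight settings, the replicate number as a block, a threshold of 0.10 and each array left out.

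Promoter windows came from RefSeq for the members listed outside chromosome 18.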

Additional observations from a re-analysis of the deposited data

How the results depend on the processing

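With each of the alternatives run, including a threshold of 0.10, 0 of the 18193 genes (or of those left by a filter) and 0 of the members were called. Lyz2, C1qb and Vcam1 kept the sign of their difference under the 16 alternatives that gave one, but C1qb came to −0.04 without I1 and Vcam1 to 0.01 without I2, and the 2 unchosen probe sets of Vcam1 gave −0.22 and −0.17. With 1 array left out the differences ran from 0.38 to 1.91 for Lyz2, −1.15 to −0.04 for C1qb, 0.01 to 2.03 for Vcam1, −0.62 to 0.52 for Csf1r, −0.36 to 0.22 for Adgre1, −1.15 to 0.41 for C1qa, −0.76 to 0.24 for C1qc and −0.92 to 0.12 for Mrc1. They ran from −0.10 to 1.14 for Cd68 and −0.10 to 1.11 for Cd14, and the number of members higher in Cdh1-deficient cells from 3 to 9. Setting genes under the median level aside left 5 members, with a median difference of 0.56. The complement list median went from −0.06 to 0.04 without I2.

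Deviations of same-numbered arrays from their group means correlated at −0.14, 0.01 and 0.04, where other-numbered pairs ran from −0.21 to 0.22. With 3 arrays a group these values cannot exclude a pairing by number. With the replicate number as a block the differences are the same by construction, 0 members were called, and the adjusted p was 0.840 for Lyz2 and 0.837 for C1qb.

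With 3 arrays a group and a wide spread between mice, the intervals leave room for differences of more than 1 on the log2 scale in at least one direction for 9 of the 10 genes.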

Other observations

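Some genes of the wider lists were high on a single array other than I1. They were chosen after their values were seen and are given as values. F13a1, a coagulation factor subunit made by monocytes, lay at 9.33 in D2 and at 4.44 to 5.82 on the others. Cd36, a scavenger receptor for lipids, lay at 7.57 in I3 and at 3.82 to 5.21 on the others. Batf3, a transcription factor of dendritic cells and activated T cells, lay at 8.41 in I2 and at 4.76 to 5.03 on the others. Ctss and Lgmn, lysosomal proteases of antigen-presenting cells, were low in I2 alone, at 5.24 and 4.69, against 11.70 to 11.98 and 8.82 to 9.90.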
